A study of Rattus norvegicus with 29 samples.

Results

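Cytosolic ribosomal protein genes were followed in the CA1 field of the rat hippocampus at 3 ages. The study hybridised CA1 RNA of male Fischer rats to single-colour Affymetrix rat arrays: 9 arrays of young rats (4 months), 10 of mid-aged rats (14 months) and 10 of aged rats (24 months). Rats of every age had passed through training on SWM and OMT (2 tasks, named so in the labels) in a 7-day sequence, and the tissue was taken 24 h later, so no untrained group enters any comparison. The labels number the arrays and name 10 rats an age, without stating that each array held a rat of its own, so the p-values measure the spread between these arrays. Array 1 of the young group was not analysed here.

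Members were all probe sets whose single annotated symbol is a large-subunit (Rpl), stalk (Rplp) or small-subunit (Rps, Rpsa) protein, leaving out the Rps6k kinases. This gave 59 of the 8740 probe sets on the array that are not controls, and 40 of the 4737 genes with a symbol of their own, 28 of the large subunit and 12 of the small. Of the 59 probe sets, 55 had a presence call on 9 or more of the 29 arrays and were tested, covering 38 genes, and 50 of the 55 were present on every array. The 4 that failed were 1 probe set each of Rpl30 (present on 4 arrays), Rps24 (3), Rps15 (2) and Rpl3l (0). The RNA came from a whole tissue field, so less RNA per cell and fewer cells of a type cannot be told apart. Ribosomal protein genes have many near-identical processed copies in mammalian genomes, and 13 of the 59 member probe sets, against 16.8% of all, carry the suffix by which the maker marks probes shared between sequences. A further 38 probe sets, whose annotation joins a ribosomal protein gene with like-named copies, fall outside the members and are described apart. Like-named symbols that stand alone in the annotation, Rpl19l4, Rpl3l and Rps27l, are counted among the members.

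Each cytosolic ribosome is built from a small subunit, which reads the mRNA, and a large subunit, which forms the peptide bonds and holds the exit tunnel. Mammalian ribosomal protein mRNAs begin with a run of pyrimidines at the cap, the 5′ terminal oligopyrimidine (TOP) tract, through which mTOR signalling and LARP1 set how much of the pool is translated. In neurons, part of this mRNA is carried into dendrites and axons, and local protein synthesis takes part in lasting synaptic change. The arrays measured mRNA amounts, not translation.

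Runs of pyrimidines were common around the RefSeq starts of the member genes. RefSeq start regions (assembly GRCr8) were found for 35 of the 40 genes. In the 50 bases around the start, an unbroken run of at least 8 C or T on the gene's strand occurred in 26 of the 35 (74.3%), against 17.3% of 1979 other genes measured on these arrays and 19.3% of all 27457 genes of the table. The letters CTTTCC occurred in 11 (31.4%), against 2.17% of the other measured genes, and on the opposite strand, as GGAAAG, in 1 (2.86%), against 1.82%. The 30 bases around the start are shown for 8 genes whose array values are given further on. Of these, 6 have such a run in the printed bases or close to them and 2 (Rpl26 and Rpl11) do not. Each is written 5′ to 3′ on the gene's strand with its longest run of C and T in capitals.
Rps10: gccgcgcacgCCCCTTCCTTTCCagcctcc
Rps15: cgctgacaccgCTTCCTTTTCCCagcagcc
Rpl4: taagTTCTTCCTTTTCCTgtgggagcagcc
Rpl21: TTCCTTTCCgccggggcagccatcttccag
Rpl39: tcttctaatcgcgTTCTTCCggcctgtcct
Rplp0: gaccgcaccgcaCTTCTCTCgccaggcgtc
Rpl26: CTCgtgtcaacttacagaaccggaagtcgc
Rpl11: ggggaCTTgaagcttgtttggtgctgggga
These windows lie at chr20:5700730-5700759 (minus strand) for Rps10, chr7:10068101-10068130 (minus) for Rps15, chr8:73566462-73566491 (plus) for Rpl4 and chr12:13386139-13386168 (minus) for Rpl21. They lie at chrX:121195882-121195911 (minus) for Rpl39, chr12:46718376-46718405 (minus) for Rplp0, chr10:54109677-54109706 (plus) for Rpl26 and chr5:153560788-153560817 (minus) for Rpl11. The annotated start need not be the one used in CA1, and a missing run says only that these letters are not in the window. The window covers both sides of the start, so a run in it need not begin at the cap. For Rpl21 the printed run lies wholly before the annotated start.

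No ribosomal probe set passed the test in aged against young rats. With limma over all 3861 measured probe sets and Benjamini-Hochberg adjustment, 0 of 55 reached an adjusted p under 0.05, while 64 of all 3861 (1.66%) did, 1.19% higher and 0.466% lower in aged rats. At an unadjusted p under 0.05 there were 10 of the 55, 9 higher and 1 lower in aged rats, against a background of 14.2% of all probe sets (6.89% higher and 7.30% lower). Most changes were small and positive. The log2 change was above 0 for 48 of 55 members, with a median of 0.10, against 46.4% and a median of -0.02 over all measured probe sets. For 51 of the 55 the size of the change was under 0.25 on the log2 scale, and the standard errors ranged from 0.06 to 0.28 with a median of 0.11. Large-subunit members had a median of 0.10, with 33 of 39 above 0, and small-subunit members 0.09, with 15 of 16 above 0. For no member were the aged and young arrays fully apart, against 0.337% of all probe sets fully apart with aged higher and 0.0259% with aged lower.

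**Figure D1:**
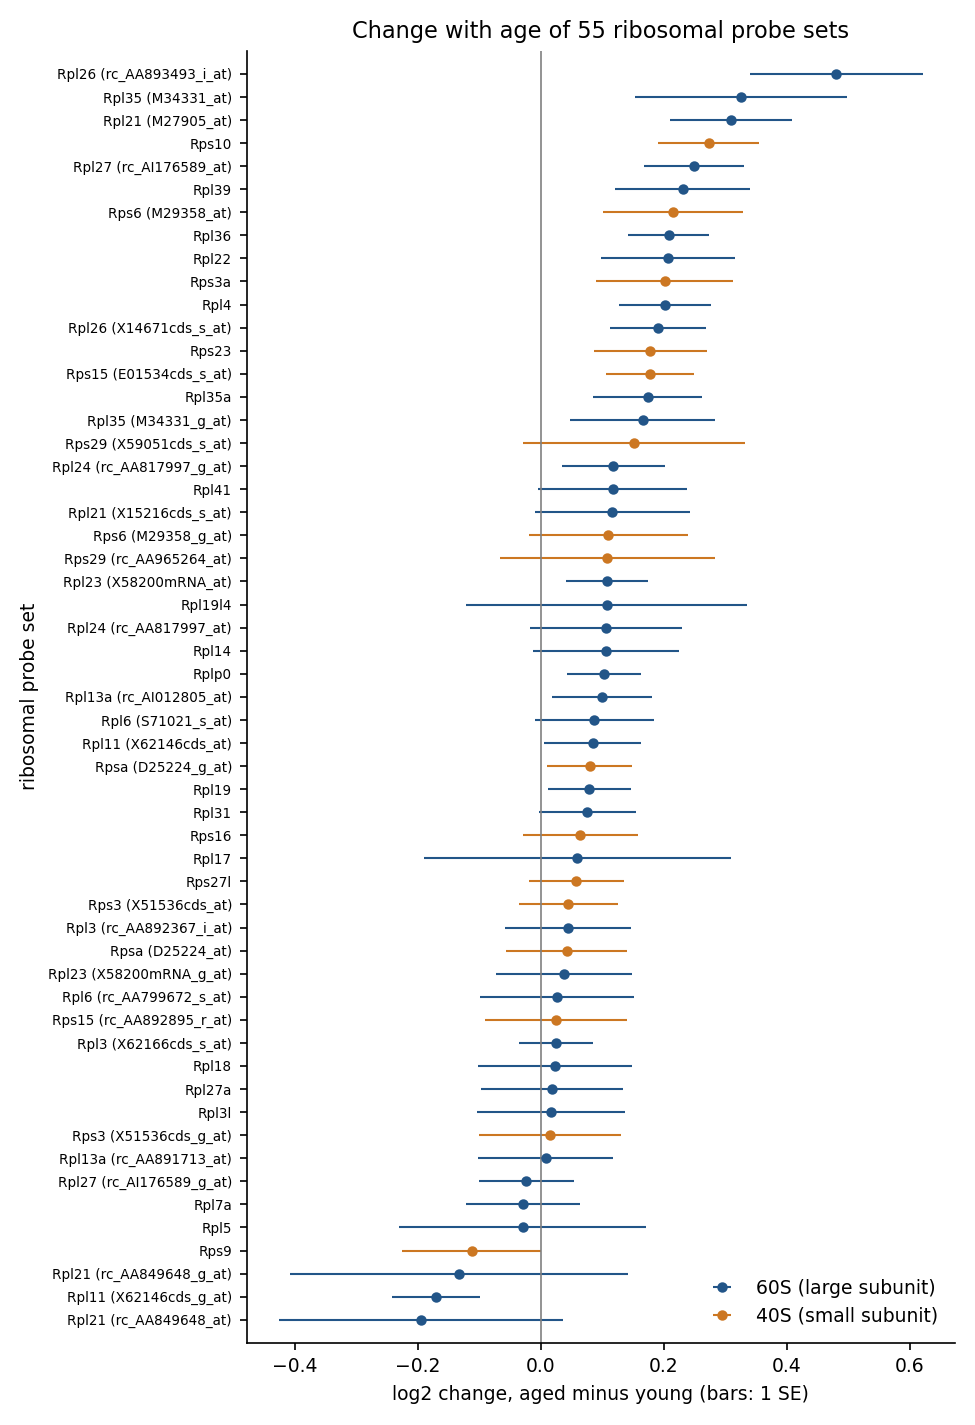
Log2 change, aged minus young (horizontal axis), of the 55 tested ribosomal probe sets (rows), with bars of 1 standard error; blue points belong to the large (60S) and orange points to the small (40S) subunit. Points right of 0 are higher in aged rats: 48 of 55 lie there, and 0 passed the adjusted test.

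The positive values came together on particular arrays. For each array the median over the 55 members of log2 Signal minus that probe set's mean over 29 arrays was taken as its ribosomal level. It averaged -0.04 ± 0.09 in young (n = 9), -0.004 ± 0.12 in mid-aged (n = 10) and 0.06 ± 0.15 in aged rats (n = 10; all SD). In aged rats it ran from -0.11 through a median of 0.01 to 0.29, and in young rats from -0.14 through -0.06 to 0.09. The 2 ranges overlapped between -0.11 and 0.09, and the upper end of the aged range was held by 3 arrays. As a share of all non-control signal on an array, the 55 probe sets carried from 4.05% to 4.54% in young, from 3.99% to 4.94% in mid-aged and from 4.15% to 5.21% in aged rats.

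**Figure D2:**
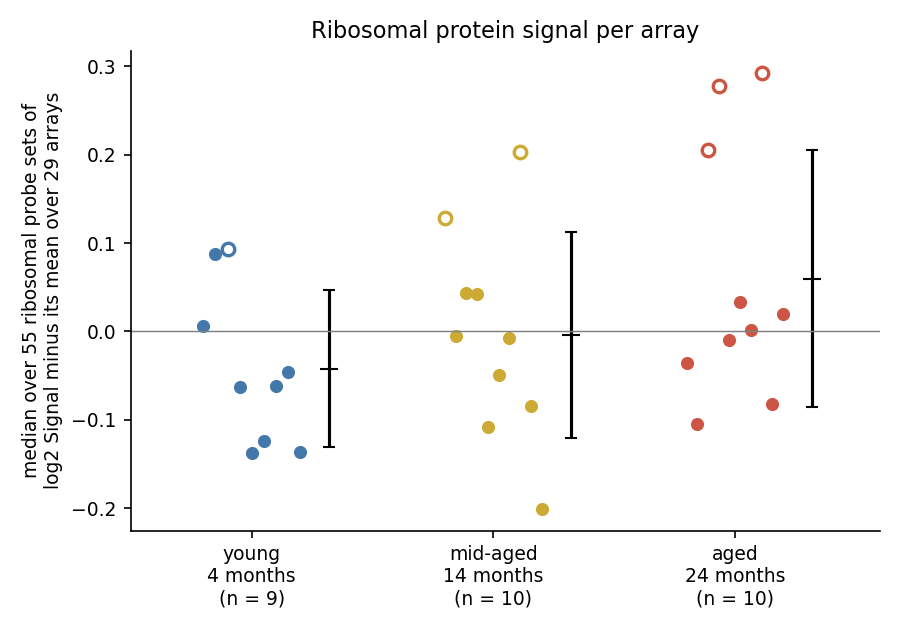
Ribosomal level of each array (vertical axis, log2 units relative to the mean of 29 arrays) by age; black marks are the group mean and SD, and open circles are the 6 arrays least like the others. The 3 open aged circles lie between 0.21 and 0.29, while the other aged arrays lie between -0.11 and 0.03.

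The arrays with the highest ribosomal level were those that resembled the other arrays least. Likeness was measured as an array's median correlation with the other arrays over all measured probe sets that are not ribosomal. The 6 least alike arrays were aged 8, aged 4, aged 3, mid-aged 8, mid-aged 1 and young 4, with medians up to 0.955, and the other 23 stood at 0.961 or above. These 6 also had the 6 highest ribosomal levels, from 0.09 to 0.29, while the other 23 lay between -0.20 and 0.09. Of the 6 arrays 5 were also among the 6 highest in the ratio of 3′ to 5′ Gapdh control signal, which rises when RNA or cDNA is incomplete at the 5′ end. That ratio, on the log2 scale, ran from -0.31 through -0.02 to 0.81 in aged and from -0.47 through -0.09 to 0.37 in young rats. The 3′ to 5′ ratios of the other controls placed fewer of the 6 arrays among their own 6 highest, 3 for actin and 4 for hexokinase. Their medians were lower in aged rats, at 0.16 in aged and 0.60 in young rats for actin and at 1.19 in aged and 1.32 in young rats for hexokinase, so the 3 controls did not order the ages alike. With the Gapdh ratio as a covariate the median ribosomal change was 0.07, with 39 of 55 above 0, against 45.6% of all probe sets, and 0 passing.

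**Figure D3:**
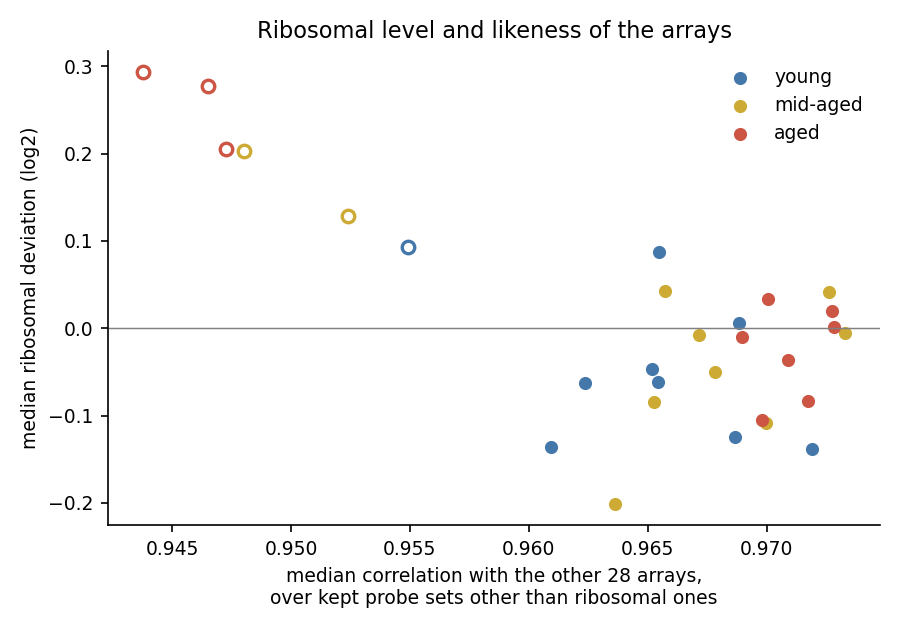
Ribosomal level of each array (vertical axis, log2 units) against its median correlation with the other 28 arrays over probe sets that are not ribosomal (horizontal axis); colours give the age and open circles the 6 least alike arrays. All 6 open circles lie left of 0.955 and above every other array.

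Without these 6 arrays, leaving 8 young, 8 mid-aged and 7 aged, fewer members had a change above 0. These arrays held the highest ribosomal levels, and more of them were aged than young. Leaving them out therefore lowers the aged vs young ribosomal change by selection, so this fit is no separate test of it. The median change aged vs young was 0.03, with 33 of 55 above 0, against 45.3% of all probe sets. The median ribosomal level of the remaining arrays was -0.06 in young, -0.03 in mid-aged and -0.01 in aged rats. At an unadjusted p under 0.05 there were 6 higher and 2 lower, against 10.1% and 9.43% of all probe sets, and 7 of these 8 were among the 10 found with all arrays. One member passed the adjusted test in this smaller set, in the opposite direction: Rps9, a small-subunit protein near the decoding site, fell by 0.26 (adjusted p = 0.0310), where 131 of all 3861 probe sets passed (3.39%), and 1.24% of all passed lower in aged rats. With all arrays Rps9 differed by -0.11 ± 0.11 (SE, adjusted p = 0.697). It is named because it passed there, after its values were seen. The arrays left out held the highest Rps9 values of all, from 14.35 to 14.56 log2 Signal, and the highest of the others was 14.23. More of the arrays left out were aged than young, so the larger fall of Rps9 depends on that choice of arrays. Among the named members, the change shrank by more than 1.5 times without the 6 arrays for Rpl22 (0.13), Rps6 by M29358_at (0.11), Rpl26 by X14671cds_s_at (0.10) and Rpl21 by X15216cds_s_at (0.04), and turned below 0 for 1 probe set each of Rpl3, Rpsa and Rps6.

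**Figure D4:**
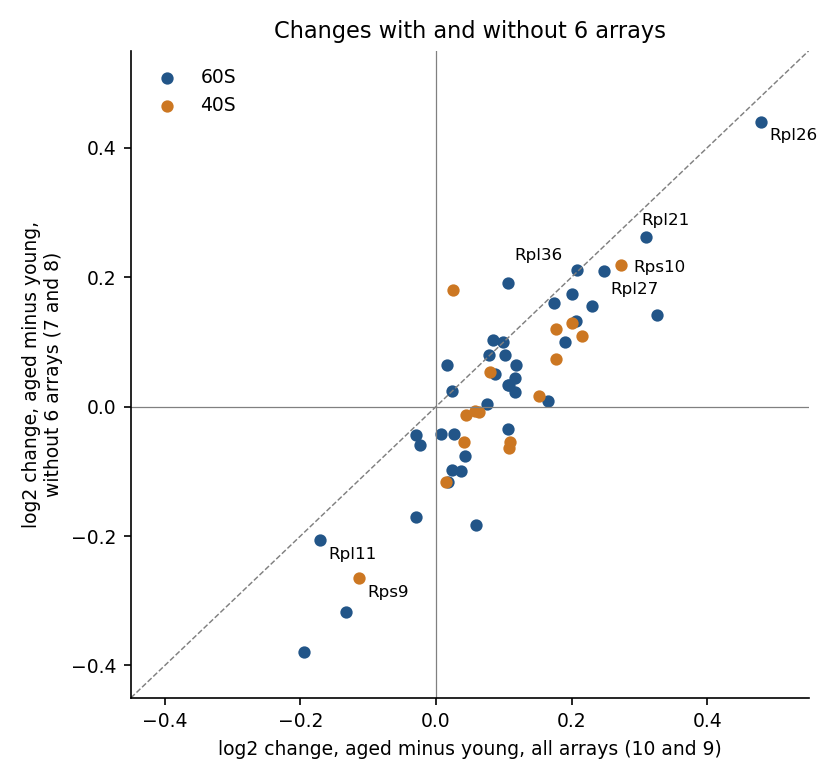
Log2 change, aged minus young, of the 55 ribosomal probe sets with all arrays (horizontal axis) and without the 6 least alike arrays (vertical axis); the dashed line marks equal values. Most points lie below the dashed line, Rpl26, Rpl21, Rps10, Rpl27 and Rpl36 remain above 0.2 on both axes, and Rps9 lies at -0.26 without the 6 arrays.

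Rpl26, a large-subunit protein at the mouth of the exit tunnel that in human cells also binds the p53 mRNA, had the largest change of any member. Its probe set rc_AA893493_i_at ran from 13.28 through a median of 14.49 to 14.63 log2 Signal in aged rats and from 13.67 through 13.78 to 14.33 in young rats. Of the 10 aged arrays 8 lay above every young array and 1, aged 2, lay below every young array. The change was 0.48 ± 0.14 (SE, adjusted p = 0.0819), or 1.39-fold, and mid-aged rats stood 0.38 above young rats (adjusted p = 0.290). Without aged 2 it was 0.60 and passed (adjusted p = 0.000998), as it did without young 2 (0.54, adjusted p = 0.0417), and without the 6 arrays it was 0.44 (adjusted p = 0.133). The second Rpl26 probe set, X14671cds_s_at, averaged 14.21 ± 0.15 in aged and 14.02 ± 0.15 in young rats (SD, n = 10 and 9), a change of 0.19 (adjusted p = 0.255). There 4 aged arrays lay above every young one.

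Rps10, a protein of the small-subunit head whose human gene is mutated in some patients with Diamond-Blackfan anaemia, was next by p. It ran from 13.10 through 13.39 to 13.58 in aged and from 12.81 through 13.10 to 13.36 in young rats. Aged arrays lay above every young one in 7 of 10 cases, and the others overlapped. The change was 0.27 ± 0.08 (SE, adjusted p = 0.0913), and 0.22 (adjusted p = 0.173) without the 6 arrays. It passed without young 3 (0.31, adjusted p = 0.0438) and without aged 2 (0.30, adjusted p = 0.0477). The mid-aged mean, 13.17 ± 0.14, was close to the young mean of 13.08 ± 0.20 (SD), and aged rats exceeded mid-aged rats by 0.19 (adjusted p = 0.925).

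Rpl36 is a small protein on the solvent side of the large subunit. Aged rats had 13.25, 13.36 and 13.57 (lowest, median and highest log2 Signal), against 12.90, 13.18 and 13.32 in young rats. All 10 aged arrays were above the young median, 7 of them above every young array. The change was 0.21 ± 0.07 (SE, adjusted p = 0.102), the same to 2 decimals without the 6 arrays (adjusted p = 0.109), and aged rats exceeded mid-aged rats by 0.16 (adjusted p = 0.925).

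Rpl21, a large-subunit protein, was the only member with 4 measured probe sets, and they pointed both ways. Probe set M27905_at ran from 13.77 through 13.97 to 14.33 in aged and from 13.33 through 13.68 to 14.07 in young rats, a change of 0.31 ± 0.10 (SE, adjusted p = 0.109). All 10 aged arrays lay above the young median. The others changed by 0.12 (X15216cds_s_at), -0.20 (rc_AA849648_at) and -0.13 (rc_AA849648_g_at), with adjusted p-values of 0.725, 0.756 and 0.871. Both rc_AA849648 probe sets, the negative ones, were much dimmer, with means of 10.16 and 9.27 log2 Signal over all arrays and standard errors of 0.23 and 0.28. The means of M27905_at and X15216cds_s_at were 13.88 and 12.97. Probe set rc_AA849648_g_at was present on 24 arrays. The difference in change between rc_AA849648_at and M27905_at was -0.51 ± 0.21 (SE), with an adjusted p of 0.483 over the 810 pairs of probe sets that share a gene.

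Rpl27 and Rpl11 also gave unequal answers. Rpl27, a large-subunit protein, changed by 0.25 ± 0.08 on rc_AI176589_at (SE, adjusted p = 0.120), where 7 aged arrays lay above every young one, from 12.76 to 13.27 in aged against 12.49 to 12.98 in young rats. On rc_AI176589_g_at it differed by -0.02 (adjusted p = 0.915). Rpl11, which with Rpl5 and 5S rRNA forms the particle that binds MDM2 when ribosome assembly fails, had the only negative change with an unadjusted p under 0.05. On X62146cds_g_at it ran from 13.35 through 13.57 to 13.71 in aged and from 13.50 through 13.76 to 13.87 in young rats. All 10 aged arrays lay below the young median, 4 of them below every young array. The change was -0.17 ± 0.07 (SE, adjusted p = 0.265), against 0.08 (adjusted p = 0.673) on X62146cds_at, and -0.21 (adjusted p = 0.124) without the 6 arrays. The Rpl5 probe set among the members was dim, from 7.33 to 8.82 in aged and from 7.40 to 8.85 in young rats, and differed by -0.03 ± 0.20 (SE). A probe set annotated to both Rpl5 and a like-named copy was bright, at 14.52 ± 0.15 in aged and 14.36 ± 0.17 in young rats (SD, n = 10 and 9), so the low signal holds for that member probe set and not for every Rpl5 probe set.

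**Figure D5:**
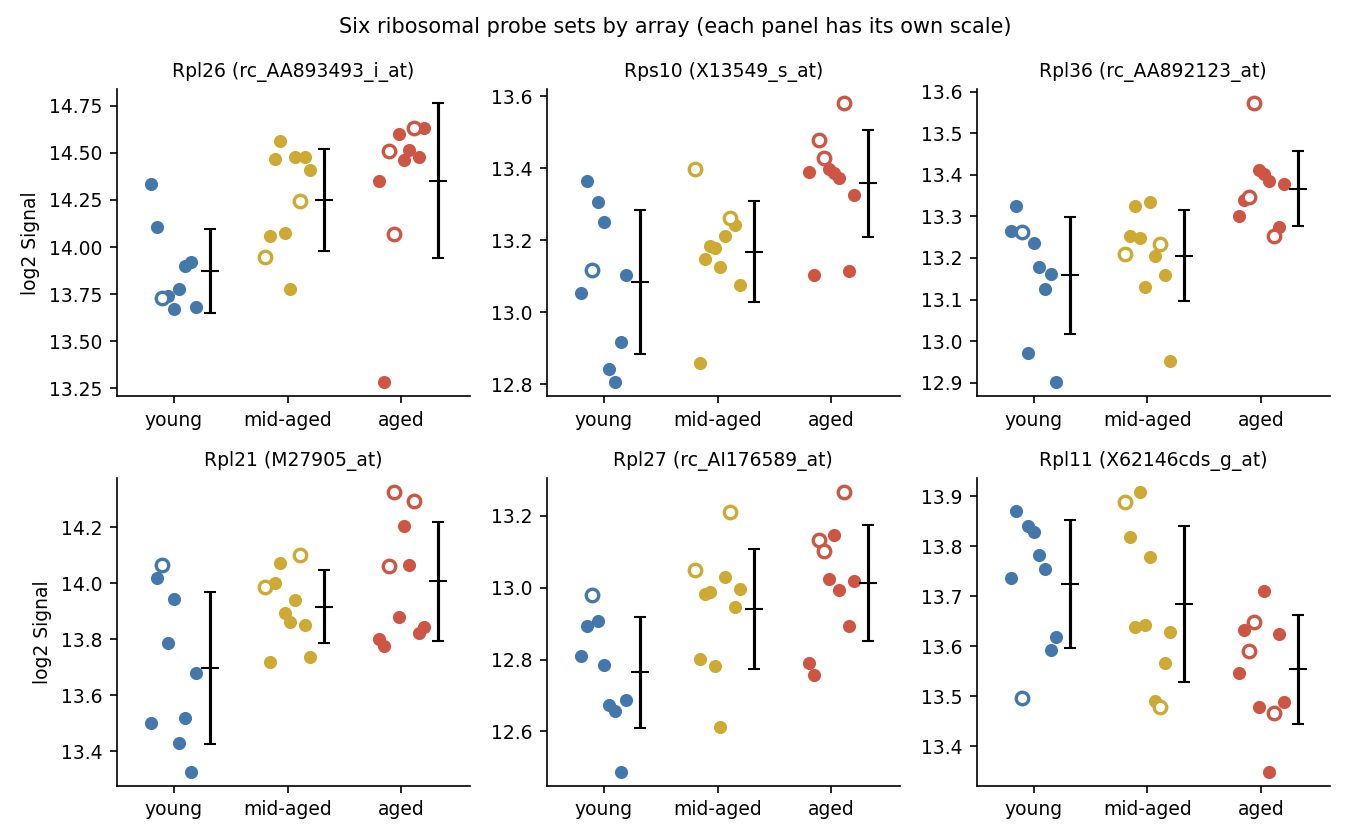
Log2 Signal (vertical axis, a scale of its own in each panel) of 6 ribosomal probe sets by age; filled points are arrays, open points the 6 least alike arrays, and black marks the mean and SD. For Rpl26 and Rps10, 8 and 7 of the 10 aged arrays lie above every young array, and for Rpl11 all 10 lie below the young median.

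Over the 15 member genes with more than 1 measured probe set there were 17 pairs with the gene's brightest probe set, and 0 pairs differed past the threshold in their change aged vs young (0.370% of 810 pairs did). At an unadjusted p under 0.05 there were 4, in Rpl27, Rpl21, Rpl11 and Rpl26. In 4 of the 17 pairs the changes had opposite signs. The matching shares over all 810 pairs are not given here, so neither count is read as high or low. With each gene represented by its brightest probe set, 34 of 38 genes had a change above 0, with a median of 0.10 and 7 at an unadjusted p under 0.05. Over all measured probe sets, a different unit, 46.4% were above 0 and 14.2% had such a p. The shares over all genes by their brightest probe set are not given here.

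Proteins that line the exit tunnel were also measured. Rpl4, whose extended loop reaches into the tunnel, ran from 12.97 through 13.17 to 13.42 in aged and from 12.84 through 12.96 to 13.22 in young rats. All 10 aged arrays were above the young median, and the change was 0.20 ± 0.08 (SE, adjusted p = 0.198). Rpl39, a short tunnel protein, differed by 0.23 ± 0.11 (SE, adjusted p = 0.332), with no aged array above every young one. Rpl35a, a large-subunit protein, differed by 0.17 ± 0.09 (SE, adjusted p = 0.375).

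Core, stalk and bridge proteins of the large subunit had adjusted p-values well above the threshold. Rpl3, which reaches toward the peptidyl transferase centre, stood at 0.04 and 0.02 on its 2 probe sets (adjusted p = 0.887 and 0.893). Rplp0, the base of the stalk that recruits elongation factors, was tightly measured, with 14.53 ± 0.08 in aged and 14.42 ± 0.10 in young rats (SD, n = 10 and 9). All 10 aged arrays lay above the young median, yet the change was 0.10 ± 0.06 (SE, adjusted p = 0.456). Rpl22, which is dispensable for bulk translation in mice, differed by 0.21 (adjusted p = 0.393), and Rpl19, which forms a bridge between the subunits, by 0.08 (adjusted p = 0.649). Rpl3l, the striated-muscle copy of Rpl3, was present on 11 arrays by 1 probe set and on 0 by the other.

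Among small-subunit members, Rps15, whose tail lies near the decoding site, ran from 14.19 through 14.38 to 14.63 in aged and from 13.97 through 14.21 to 14.46 in young rats on E01534cds_s_at. The change was 0.18 ± 0.07 (SE, adjusted p = 0.240), while rc_AA892895_r_at gave 0.02 (adjusted p = 0.940). Rps6, the substrate of the S6 kinases, differed by 0.22 and 0.11 on its 2 probe sets (adjusted p = 0.397 and 0.756). On the first of these 7 aged arrays lay above every young array and 2 below every one. Rpsa, the 40S protein also known as the laminin receptor precursor, differed by 0.04 and 0.08 (adjusted p = 0.887 and 0.652).

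In mid-aged against young rats 0 of 55 members passed, against 16 of 3861 probe sets (0.414%). At an unadjusted p under 0.05 there were 5 members, each higher in mid-aged rats, against 11.2% of all probe sets (5.26% higher and 5.91% lower). The 5 members with the smallest p included Rpl19, at 14.67 ± 0.08 in mid-aged and 14.49 ± 0.14 in young rats (SD, n = 10 and 9). All 10 mid-aged arrays lay above the young median for Rpl19, with a change of 0.18 ± 0.07 (SE, adjusted p = 0.30). Rpl3 by X62166cds_s_at was likewise above the young median on all 10 mid-aged arrays, with a change of 0.13 ± 0.06 (SE, adjusted p = 0.407), but only 0.02 in aged against young rats. Rpl26, Rpl21 and Rpl27 differed by 0.38, 0.22 and 0.18 in mid-aged rats (adjusted p = 0.290, 0.404 and 0.416). The median change was 0.05, with 33 of 55 above 0 against 45.4% of all probe sets. It was 0.08 for the large and -0.02 for the small subunit, a difference that was not tested.

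In aged against mid-aged rats 0 of 55 passed, against 2 of 3861 (0.0518%), and 4 members, each higher in aged rats, had an unadjusted p under 0.05, against 5.18% of all (2.95% higher and 2.23% lower). The smallest p belonged to Rps15 by E01534cds_s_at (0.18, adjusted p = 0.890), with Rpl36, Rps10, Rplp0 and Rpl11 next. The median change was 0.06, with 39 of 55 above 0 against 49.8%. Small-subunit members had a median of 0.12, with 14 of 16 above 0, and large-subunit members 0.04, with 25 of 39. Bright probe sets, with a mean of 13.34 log2 Signal or more, were also compared. Of 33 such members 66.7% were above 0, against 68.1% of 329 such probe sets that are not ribosomal. Their medians were 0.06 and 0.05, so these members did not stand out from probe sets of like brightness. In aged against young rats the same sets gave 87.9% and 54.1%, and in mid-aged against young rats 60.6% and 36.2%. The mid-aged mean set against the midpoint of young and aged gave 0 of 55 members past the threshold (0% of all probe sets) and 2 at an unadjusted p under 0.05, against 5.21%. The 3 pairs of ages share arrays and are not independent of each other.

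Another feature of the samples was split between ages. The data columns carry 2 styles of array name, of unstated meaning, and the shorter style was found on 5 of the 9 young, 4 of the 10 mid-aged and 0 of the 10 aged arrays. Young arrays had ribosomal levels of -0.005 ± 0.11 in the longer (n = 4) and -0.07 ± 0.06 in the shorter style (n = 5). With style added to the model the median change aged vs young was 0.09, with 39 of 55 above 0, against 48.8% of all probe sets. Among arrays of the longer style alone, 10 aged and 4 young, it was 0.08, with 38 of 55 above 0, against 49.5%. In both fits 0 members passed. Single genes moved more than the median did. Rps10 stood at 0.17 with style in the model (adjusted p = 0.371) and at 0.13 in the longer style alone (adjusted p = 0.652). Rpl21 by M27905_at stood at 0.22 and 0.12 in these fits (adjusted p = 0.362 and 0.747), and Rpl27 by rc_AI176589_at at 0.17 and 0.15 (adjusted p = 0.377 and 0.672). Other changes were larger there than with all arrays and no style term: Rpl26 by X14671cds_s_at stood at 0.29 in both fits, and Rpl39 at 0.33 and 0.38. The shorter style holds no aged array, so no aged vs young value can be had within it.

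Probe sets whose annotation joins a ribosomal protein gene with like-named copies were examined separately. Of the 38 on the array 37 were measured, and as their signal cannot be assigned to 1 gene they are not named. In aged against young rats 2 of the 37 passed, both higher, against 1.19% of all probe sets passing higher. The first ran from 13.77 through 13.84 to 14.33 in aged and from 12.74 through 13.42 to 13.96 in young rats, and rose by 0.59 ± 0.14 (SE, adjusted p = 0.0112). The second ran from 13.19 through 13.40 to 13.66 in aged and from 11.30 through 12.57 to 13.48 in young rats, and rose by 0.81 ± 0.21 (SE, adjusted p = 0.0377). In both, all 10 aged arrays lay above the young median, and the young arrays were the more scattered. The same annotation as that of the second is carried by 1 more probe set, which differed by only 0.11 (adjusted p = 0.568), and a probe set sharing most of the first one's annotation also differed by 0.11 (adjusted p = 0.483). All 37 changes were above 0, against 46.4% of all probe sets, with a median of 0.14 and 11 at an unadjusted p under 0.05, each of them higher, against 6.89% of all. The second lost its call when any of 12 arrays was left out (young 2, 4, 7, 8 and 9, and aged 1, 5, 6, 7, 8, 9 and 10), with adjusted p-values from 0.0513 to 0.105. It also lost its call with the replicate number as a block (0.79, adjusted p = 0.0578) and with no filter on presence (adjusted p = 0.101). Without aged 2, 4 of the group passed. Without the 6 least alike arrays 25 of 37 were above 0, with a median of 0.08 and 1 passing. Of those 6 arrays 5 were among the 6 highest for this group, so a lower change was to be had by selection there too. In the longer name style alone, and with the style in the fit, 0 passed.

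Genes that work beside the ribosomal proteins were read on the same arrays. Of 9 other genes with reported TOP-like starts 0 passed, with a median of 0.07. Gas5, a host gene of small nucleolar RNAs, stood highest by p at 0.38 ± 0.12 (SE, adjusted p = 0.0981). Of 7 ribosome assembly and nucleolar genes 0 passed, with nucleolin (Ncl) at 0.32 ± 0.10 (SE, adjusted p = 0.0950) and a median of -0.06. Of 5 elongation factor genes 0 passed, with a median of 0.07. Eef1a1, which delivers aminoacyl-tRNA, differed by 0.20 and Eef2k, the kinase that inhibits Eef2, by -0.34 (adjusted p = 0.435 and 0.309). None of 17 initiation factor genes, 14 mitochondrial ribosomal protein genes and 7 genes of the S6 kinase and mTOR pathway passed, with medians of -0.04, -0.07 and 0.02. The kinase gene Rps6kb1 differed by -0.12 (adjusted p = 0.706).

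Markers of several cell types were higher in aged rats on the same arrays. All 4 measured microglial and macrophage genes rose in aged against young rats, with C1qb at 0.62 and Ctss at 0.39. Their summed Signal ran from 26985 to 35262 in aged and from 20876 to 24469 in young rats. All 6 oligodendrocyte genes were higher in aged rats, by 0.17 to 0.61, and 2 of them passed, Mag and Pmp22. Their sums ran from 71637 to 107835 in aged and from 63165 to 75098 in young rats. Both measured haemoglobin genes rose, with sums from 14249 to 29031 in aged and from 4597 to 12897 in young rats. All 6 astrocyte genes were higher in aged rats, by 0.04 to 0.54, but 0 passed. Their sums ran from 89203 to 138362 in aged and from 79496 to 119116 in young rats. Of 5 measured neuronal genes (Thy1, Snap25, Nefl, Syt1 and Camk2a) 2 were higher in aged rats and 0 passed. Their sums ran from 57715 to 77234 in aged and from 65271 to 84938 in young rats. Eno2 and Stmn2 were also looked for, but no probe set carried either symbol alone. Of 2 choroid plexus genes 0 passed, with sums from 1369 to 4647 in aged and from 1615 to 3762 in young rats. In mid-aged rats the choroid plexus sum reached 25698, from a lowest of 1523 and a median of 1828. None of these measured markers was at 0, and the part of any cell type in the ribosomal values was not tested.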

How the data were processed

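The authors deposited 1 Affymetrix table per array (rat genome U34, A array) with an intensity, the Signal, and a presence call per probe set, and a series table of intensity values, some below 0, used as an alternative; no label or header read here names the software. One Signal column repeated another array's and was not used. Control probe sets (59) were removed, and arrays were scaled to equal trimmed means (2% off each end; factors 0.999 to 1.00), signals were floored at 160.8, the median of values called absent, and log2 was taken; 3861 of 8740 probe sets, those present on 9 or more of 29 arrays, were kept. Arrays carry no read depth: the number of arrays limits the precision. The 3 ages were fitted with limma 3.58.1 in R 4.3.3 (lmFit, eBayes), two-sided, with Benjamini-Hochberg adjustment over all kept probe sets and a threshold of 0.05; probe sets of 1 gene were compared by fitting their difference. The steps were tested on simulated data.

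Gene names came from the platform annotation. Of the 40 member genes 39 matched RefSeq (GRCr8), with 0 symbols changed, and 35 had a start region; none was found for Rpl19l4, Rpl27, Rpl30, Rps29 and Rps9. Members and gene lists were chosen with earlier results of these data known. Named genes were the 10 members with the smallest p aged vs young, 5 for each other pair of ages, those with 3 or more measured probe sets, and a list fixed by name, 17 genes in all. Same-numbered arrays were not paired: their deviations correlated by -0.20 to 0.58 (median 0.09, 13 of 28 pairs over 0.1). No 2 arrays shared over 0.136% of their signals. Alternatives covered scaling, source, filter, floor, log scale, variance model, replicate number, RNA quality, name style, arrays left out and choice of probe set.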

Additional observations from a re-analysis of the deposited data

Results flagged for a closer look

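Within single ages, 6 of the 90 groups examined held 1 array standing well apart from the others by Dixon's test, where chance flags about 1 in 20. Rpl26 by rc_AA893493_i_at had 13.28 log2 Signal on aged 2, against 14.07 to 14.63 on the other aged arrays, the array without which its change passed. Rpl36 had 13.57 on aged 4, against 13.25 to 13.41 on the other aged arrays. Rpl21 by X15216cds_s_at had 11.89 on mid-aged 7, against 12.69 to 13.41. Rpl35a had 12.53 on mid-aged 10, against 12.89 to 13.26. Rps15 by rc_AA892895_r_at had 13.96 on mid-aged 1, against 13.36 to 13.68. Rpl19 had 14.15 on young 6, against 14.42 to 14.64 on the other young arrays.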

How the results depend on the processing

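The count of ribosomal probe sets past the threshold aged vs young, 0, became 2 in the series value table (Rpl21 and Rpl26), 1 with a higher floor (Rpl36), 3 without logs (Rpl26, Rpl36 and Rps10), 6 with array weights (5 higher and 1 lower), 1 with the replicate number as a block (Rpl21) and 1 without the 6 arrays (Rps9, lower). It stayed 0 under the 14 other settings, and leaving out each array gave 0 to 2. The count of 1 without young 2 was Rpl26, that of 1 without young 3 was Rps10, and the 2 without aged 2 were both. The cause was not tested. The count over all 3861 probe sets, 64, became 326 with array weights, 131 without the 6 arrays and 98 with the Gapdh ratio. It was 94 in the series table, 77 with a higher floor, 80 without logs and 77 with the block. Without young 2, young 3 or aged 2 it was 68, 76 and 84. The longer name style alone, with fewer arrays, gave 16. The median change aged vs young stayed above 0 under 20 settings, from 0.03 to 0.14 (0.06 to 0.11 leaving out each array). The ribosomal level of single arrays had a pooled SD within ages of 0.12. That SD describes single arrays and is not the error of a difference between ages. The medians of mid-aged vs young (0.02 to 0.07) and aged vs mid-aged (0.01 to 0.10) also stayed above 0, and their counts, like that of the pairs and of the mid-aged midpoint, stayed at 0 under every setting run. Median scaling moved the median of all probe sets aged vs young to 0.02, with ribosomal probe sets at 0.14.

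For the probe sets with joined annotation the count of 2 became 0 in the series table, with the name style in the fit and in the longer style alone, 1 without the 6 arrays and with 2 ages only, 4 with the Gapdh ratio, 5 with a higher floor, 5 without logs and 8 with array weights, and 3 with no scaling, quantile normalization, scaling without ribosomal probe sets, an intensity trend and a straight line in age; leaving out each array gave 1 to 4. With the block and with no filter the count stayed 2, but the second joined probe set was no longer among them.

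Some named changes aged vs young turned sign, each with an adjusted p above the threshold on both sides. Rpl3 by rc_AA892367_i_at (0.044) went to -0.044 (quantile normalization), -0.012 (series table), -0.042 (array weights), -0.021 (Gapdh ratio), -0.053 (style in the fit), -0.063 (longer style) and -0.076 (without the 6 arrays). Rpl3 by X62166cds_s_at (0.024) went to -0.012 with quantile normalization and -0.00999 in the series table (-0.0013 to 0.047 leaving out each array). Rpsa by D25224_at (0.042) went to -0.041 (series table), -0.0083 (array weights), -3.7e-05 (Gapdh ratio), -0.074 (style in the fit), -0.043 (longer style) and -0.054 (without the 6 arrays), and by D25224_g_at (0.080) to -0.0065 in the series table. Rps6 by M29358_g_at (0.11) went to -0.0094 with array weights and -0.055 without the 6 arrays. Rps15 by rc_AA892895_r_at (0.025) went to -0.0035 with the block, -0.030 with style in the fit and -0.10 in the longer style (-0.032 to 0.092 leaving out each array). Rpl27 by rc_AI176589_g_at (-0.024) went to 0.013 with median scaling, 0.032 in the series table, 0.090 with style in the fit and 0.15 in the longer style (-0.060 to 0.0047 leaving out each array). Rpl5 by rc_AI103498_at (-0.030) went to 0.020 with quantile normalization, 0.0060 with median scaling and 0.033 in the series table (-0.14 to 0.076 leaving out each array). The cause was not tested.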
